A study of Mus musculus with 9 samples.

Results

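The enzymes that build triglyceride from glycerol 3-phosphate were followed in mouse liver as 10 genes: Gpam, Gpat3, Gpat4, Agpat2, Lpin1, Lpin2, Lpin3, Mogat1, Dgat1 and Dgat2. They were taken by gene name from a deposited expression table of 54532 genes. Each name matched 1 row. The livers came from male C57BL/6J mice of wild-type genotype in 3 groups, each with 3 poly(A) RNA libraries. The chow group ate a normal diet and received vehicle. The vehicle group ate CDAA-HFD, a high-fat feed that lacks choline and supplies amino acids in free form, which causes steatohepatitis in mice, and also received vehicle. The 326E group ate the same CDAA-HFD and received the compound 326E at 30 mg/kg for 6 weeks. The series title describes 326E as an enedioic acid analogue aimed at ATP citrate lyase and PPARα, and the design asks how the compound acts on steatohepatitis. Library names begin with MCD, but the protocols name CDAA-HFD and chow, which are used here. Whether the libraries are from separate animals is not given in the sources used here, so the p-values measure only the spread between them, which may be technical.

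Triglyceride is built in the endoplasmic reticulum and at the mitochondrial surface by adding fatty acids to a glycerol backbone. Glycerol 3-phosphate acyltransferases add the first acyl chain, lysophosphatidate acyltransferases add the next, and lipins remove the phosphate to give diacylglycerol. Diacylglycerol acyltransferases add the last chain, and monoacylglycerol acyltransferases offer a side entry that makes diacylglycerol from monoacylglycerol. In hepatocytes the product is stored in lipid droplets or secreted in very low density lipoproteins. Diacylglycerol and phosphatidate are also precursors of phospholipids, including the phosphatidylcholine whose synthesis a choline-free diet limits.

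Mogat1, Agpat2 and Gpam were the 3 enzymes called higher with 326E against vehicle, and their promoters are shown for that reason. RefSeq promoters of GRCm38.p6, which run from 250 bases before the RefSeq start site to 50 bases after it, were found for 7 of the 10 genes, in 11 promoters. The sequences are 5′ to 3′ on the gene's strand, and capitals mark the motif AGGTCA, the hexamer that many nuclear receptors bind. The Mogat1 promoter lies at chr1:78510810-78511109 on the plus strand, the Agpat2 promoter at chr2:26604368-26604667 on the minus strand and the Gpam promoter at chr19:55099428-55099727 on the minus strand.
Mogat1: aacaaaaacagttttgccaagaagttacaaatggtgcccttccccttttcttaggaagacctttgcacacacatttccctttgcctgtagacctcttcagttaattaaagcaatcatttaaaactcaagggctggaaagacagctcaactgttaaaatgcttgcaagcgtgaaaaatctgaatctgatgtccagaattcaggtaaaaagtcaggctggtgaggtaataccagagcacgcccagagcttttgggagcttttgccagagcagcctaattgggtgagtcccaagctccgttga
Agpat2: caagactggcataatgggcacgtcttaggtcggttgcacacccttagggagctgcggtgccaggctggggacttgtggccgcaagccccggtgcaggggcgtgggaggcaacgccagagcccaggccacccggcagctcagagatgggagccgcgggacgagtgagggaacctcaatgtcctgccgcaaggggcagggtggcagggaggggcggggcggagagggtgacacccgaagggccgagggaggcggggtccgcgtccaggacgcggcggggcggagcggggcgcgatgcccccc
Gpam: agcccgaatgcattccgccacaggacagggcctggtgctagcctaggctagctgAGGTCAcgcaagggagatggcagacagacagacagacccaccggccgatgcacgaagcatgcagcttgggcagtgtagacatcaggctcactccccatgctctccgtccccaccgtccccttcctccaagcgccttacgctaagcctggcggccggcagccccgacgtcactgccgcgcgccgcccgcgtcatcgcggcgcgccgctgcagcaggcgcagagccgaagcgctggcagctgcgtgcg

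The motifs searched, on both strands, were a PPAR response element of the DR1 type (a pair of AGGTCA hexamers with 1 base between them, which therefore overlaps the next search), the single hexamer AGGTCA, the E-box CACGTG and the sterol regulatory element TCACNCCAC. Of 32851 promoters of this length, 0.0396% held the DR1, 16.3% held AGGTCA, 7.15% held CACGTG and 1.24% held TCACNCCAC. The Gpam promoter shown held AGGTCA 196 bases before its start site, and the other RefSeq promoter of Gpam held none of the 4 motifs. The Lpin1 promoter held AGGTCA 74 bases before the start, 1 Lpin2 promoter held CACGTG 9 bases before it, and 1 Lpin3 promoter held CACGTG 22 bases after it. These 4 of the 11 promoters were the ones with a match, and the Mogat1 and Agpat2 windows held none of these letters. The exact DR1 was in only 13 of 32851 promoters, so its absence here was nearly fixed in advance. Sites with other letters or outside the windows were not searched, so the search cannot show that a gene lacks a PPAR site.

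Values are FPKM, reads per unit of gene length and of a library size set by the authors. Libraries held 13275888 to 17058316 reads assigned to genes, and 1 read in a gene of 2 kb was worth 0.0246 to 0.0455 FPKM. Differences between groups are differences of log2(FPKM+1), written with their standard error. They understate changes of genes near 1 FPKM. A gene was called at a limma adjusted p under 0.05 over the 13737 genes tested. Vehicle replicate 2 was apart from the other vehicle libraries on the second principal component (15.3% of the variance; 5.28 beside 21.84 and 21.99), so values with it as the lone vehicle library are given where a call changes. In bulk liver, fewer cells of a type and less RNA per cell cannot be told apart. The 6 hepatocyte markers summed to 36710 to 43720 FPKM in chow, to 24360 to 38440 in vehicle and to 22550 to 31890 in 326E libraries. Alb alone stood at 25921 to 34911, 20061 to 32449 and 16456 to 25782 FPKM. Of the 6, 4 were called lower with the diet, beside 20.8% of all tested genes. With 326E against vehicle 0 were called, beside 11.5% of all tested genes. In the same order of groups, the 8 macrophage markers summed to 30.3 to 34.9, 304 to 455 and 136 to 243 FPKM, and the 6 stellate cell markers to 41.5 to 52.7, 156 to 213 and 107 to 134 FPKM. Of these 6, 4 were called higher with the diet, beside 20.8% of all tested genes. With 326E against vehicle 3 were called lower, beside 6.5% of all tested genes. The other 3, Acta2, Lrat and Pdgfrb, did not pass, at 0.25, 0.03 and -0.21. The 4 pancreas markers summed to 2656 FPKM in chow replicate 3 and 225.5 in 326E replicate 1, to 15.8 or less in the other chow and 326E libraries and to 2.82 to 3.80 in vehicle libraries, so these 2 libraries stand apart. Without 326E replicate 1 the calls of the 10 enzymes were unchanged in number, at 4, 3 and 3 for the diet, 326E against vehicle and 326E against chow, and without chow replicate 3 they were 3, 3 and 3, with Gpam not called for the diet.

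On CDAA-HFD with vehicle, Gpat3 and Lpin2 rose and Agpat2 and Gpam fell against chow. The other 6 enzymes did not pass. With 2 of 10 enzymes called higher and 2 called lower, the shares can be read against 20.8% of all tested genes called higher and 20.8% called lower, 41.6% in either direction. The median difference of the 10 enzymes was -0.13, beside -0.04 over all tested genes. The enzymes thus moved both ways, at a share close to the background. Of the called genes 50% were higher, and 84.1% when values were scaled to total reads.

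With 326E against vehicle, Mogat1, Gpam and Agpat2 were called higher and 7 did not pass. None of the 10 enzymes was called lower (0 at an unadjusted p under 0.05 and 0 with voom), and the lowest difference was that of Lpin1, at -1.15. Mogat1 reached the minimum of 0.5 FPKM only in 326E libraries, and the list was chosen with earlier results of these data known. The shares given next are therefore no test of the list. Of all tested genes, 4.96% were called higher, 6.5% lower and 11.5% in either direction. The median difference of the enzymes was 0.13, beside -0.02 over all tested genes. Against chow, 326E livers had higher Mogat1, Gpat3 and Lpin2, with 3 called higher and 0 lower in limma (0 lower with voom). At an unadjusted p under 0.05, 2 were lower, Lpin1 and Dgat2. Over all 13737 tested genes, at least 5141 had an unadjusted p under 0.05 in either direction for 326E against chow. The background there was 14.4% called higher, 12.5% lower and 26.8% in either direction, with medians of 0.08 for the enzymes and -0.02 for all tested genes. Scaled to total reads, 86.9% of called genes were higher, beside 53.5%. The comparisons share libraries, so the vehicle libraries enter both the diet and the 326E difference, and opposite signs there are not independent.

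**Figure D1:**
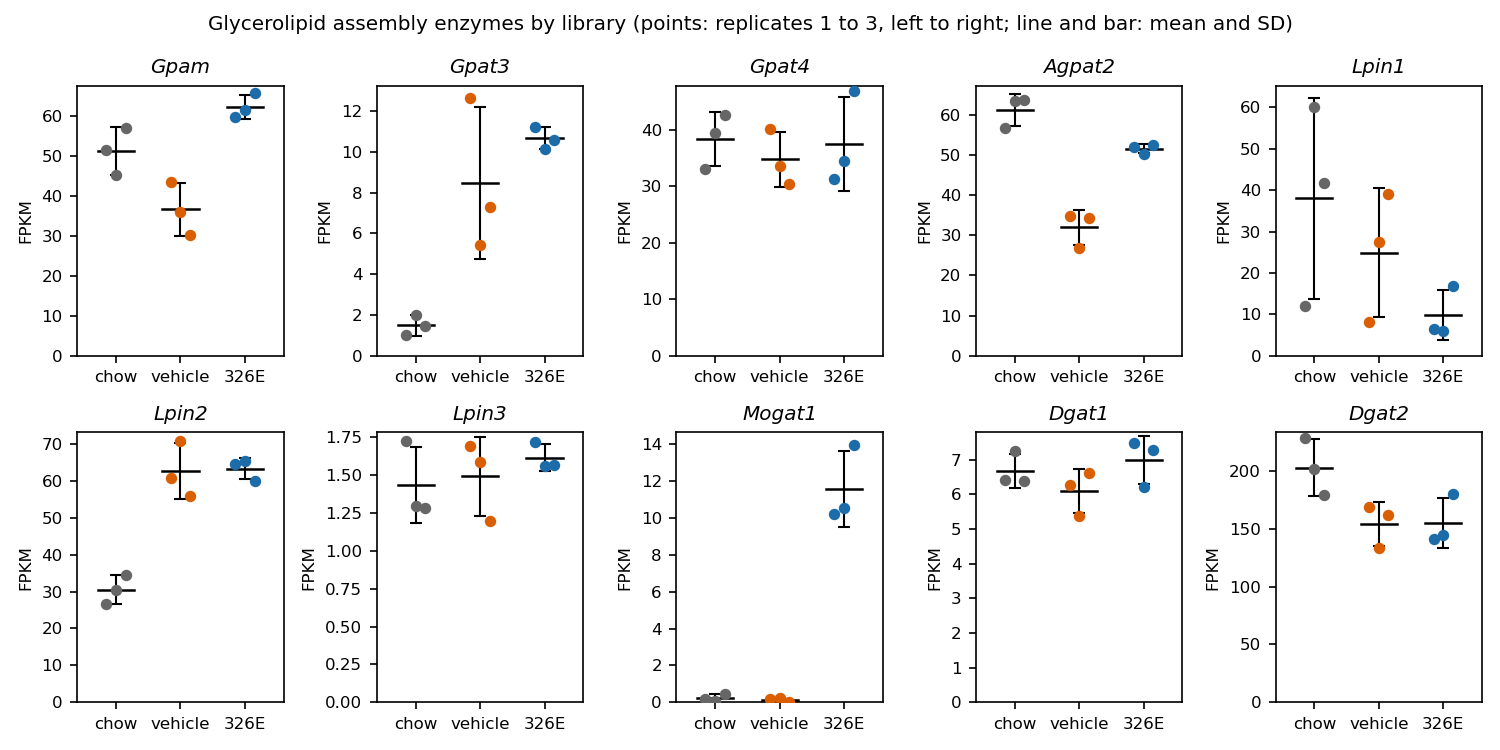
FPKM of the 10 enzymes in each library, by group, with the group mean as a line and the SD as a bar; each panel has its own axis from 0. Mogat1 lies at 0.0373 to 0.467 FPKM in the 6 chow and vehicle libraries and at 10.2 to 13.9 in the 326E libraries, while Lpin1 spreads widely within every group.

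**Figure D2:**
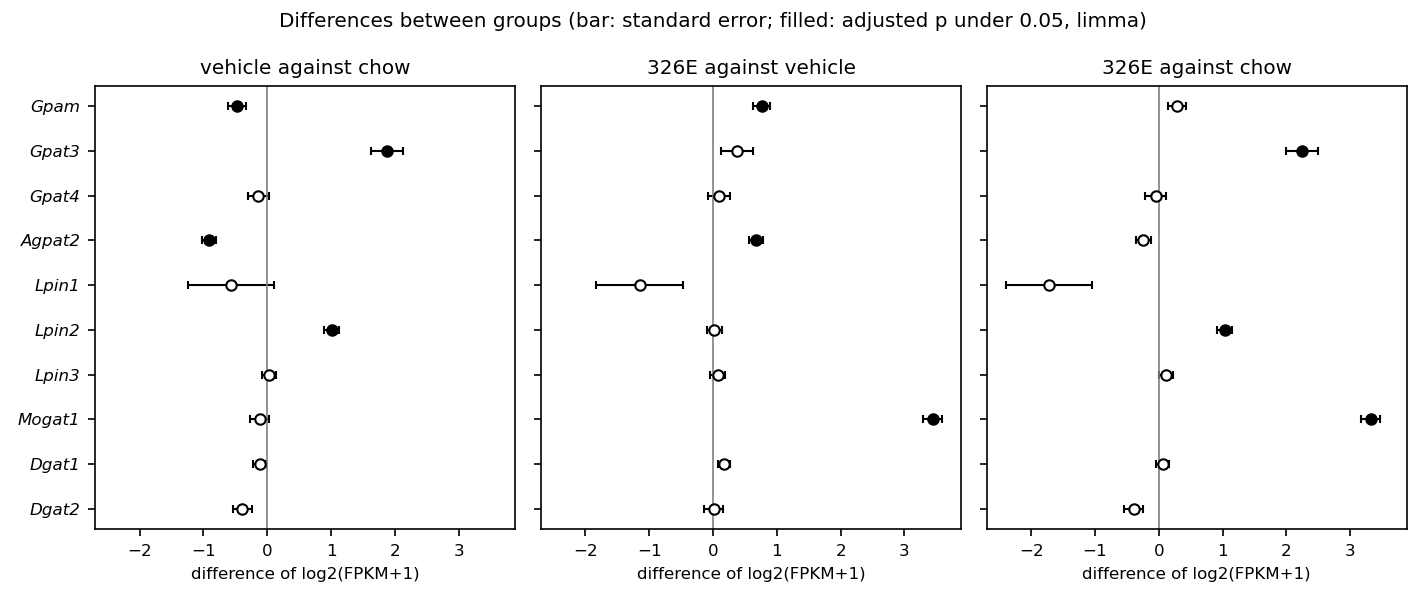
Differences of log2(FPKM+1) between groups for the 10 enzymes, with standard errors; filled points passed an adjusted p under 0.05 in limma. Mogat1 stands apart at 3.44 for 326E against vehicle, and Agpat2 and Gpam lie below 0 for the diet and above 0 for 326E.

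Dgat2 had the highest level of the 10 enzymes in every group, with means of 203, 154 and 155 FPKM in chow, vehicle and 326E libraries, and its libraries did not overlap with those of the next gene. In chow, Agpat2 and Gpam followed at 61.2 and 51.3 FPKM, with overlapping libraries. In vehicle livers Lpin2 came second at 62.5 FPKM, above Gpam at 36.6. In 326E livers Lpin2 and Gpam overlapped at 63.2 and 62.3 FPKM. Mogat1 was the lowest of the 10 in chow and vehicle, and sixth in 326E livers, where its libraries overlapped those of Gpat3, which in turn overlapped Lpin1. Lpin3 was lowest in 326E livers at 1.61 FPKM.

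The first step is shared by Gpam, the mitochondrial acyltransferase that sterol regulatory and insulin signals are known to induce, and by Gpat3 and Gpat4 of the endoplasmic reticulum. Gpam (ENSMUSG00000024978, mm10 chromosome 19, 55069734 to 55099451, minus strand) stood at 51.4, 45.2 and 57.1 FPKM in chow replicates 1, 2 and 3, at 43.6, 36.0 and 30.3 in vehicle, and at 59.8, 61.4 and 65.7 in 326E libraries. The 3 groups did not overlap, with vehicle lowest and 326E highest. Gpam fell by 0.48 ± 0.14 with the diet (adjusted p = 0.0233). It rose by 0.76 ± 0.14 with 326E against vehicle (adjusted p = 0.0124). Against chow the 326E value was 0.28 ± 0.14 (adjusted p = 0.175, 95% interval -0.04 to 0.60). The fall with the diet did not pass in 8 of the 20 alternatives, among them scaling to total reads (-0.09, adjusted p = 0.657), quantile normalization (-0.25, adjusted p = 0.241) and leaving out chow replicate 1 or 3 or vehicle replicate 2 or 3 (adjusted p = 0.0634, 0.0799, 0.0565 and 0.0733). When only vehicle replicate 2 was kept, the Gpam difference was -0.49 for the diet and 0.77 for 326E against vehicle, and neither passed.

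Gpat3, the isozyme known for triglyceride synthesis in fat cells and also expressed by macrophages, rose with the diet. It (ENSMUSG00000029314, mm10 chromosome 5, 100845713 to 100899102, plus strand) stood at 1.02, 2.03 and 1.46 FPKM in chow, at 12.6, 5.45 and 7.31 in vehicle and at 11.2, 10.1 and 10.6 in 326E libraries. Every CDAA-HFD library was above every chow library, and the vehicle libraries spread around the 326E ones. The rise was 1.87 ± 0.25 for vehicle against chow (adjusted p = 4.44e-04) and 2.24 ± 0.25 for 326E against chow (adjusted p = 4.28e-04). Between 326E and vehicle the difference was 0.37 ± 0.25 (adjusted p = 0.37, 95% interval -0.20 to 0.94). All 8 macrophage markers rose with the diet, as Gpat3 did, beside 20.8% of all tested genes. Of the 8, Trem2, Gpnmb, Itgax and Cx3cr1 stayed under the minimum of 0.5 FPKM in every chow library (at most 0.343, 0.0559, 0.321 and 0.364). They were tested only because they were high on CDAA-HFD, so their calls add little to that share. With 326E against vehicle, 4 of the 8 fell (7 with voom), beside 6.5% of all tested genes, and the other 4 did not pass. Their median was -1.02, beside -0.02 over all tested genes, where Gpat3 did not pass. Of 4 Kupffer cell markers, 1 rose (Cd5l, 0.94) and 1 fell (Timd4, -1.51) with the diet, beside 20.8% of all tested genes called in each direction. With 326E against vehicle 1 rose (Timd4, 1.27) and 3 did not pass, beside 4.96% of all tested genes called higher. The part of macrophages in the Gpat3 values was not tested. Within the Gpat3 locus an antisense gene had at most 43 reads in a library, beside 46 or more for Gpat3.

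Gpat4, the other reticular isozyme, stood at 33.1, 39.4 and 42.6 FPKM in chow, at 40.1, 33.7 and 30.5 in vehicle and at 31.2, 34.4 and 46.9 in 326E libraries, and all groups overlapped. Its differences were -0.14 ± 0.17 for the diet and 0.09 ± 0.17 for 326E against vehicle (95% interval -0.29 to 0.48). As shares of the summed FPKM of Gpam, Gpat2, Gpat3 and Gpat4, Gpam made up 55.7% ± 3.87 (SD, n = 3) in chow, 45.3% ± 1.87 in vehicle livers and 56.1% ± 2.67 in those with 326E. The Gpat3 share was 1.64% ± 0.60 in chow, 10.2% ± 2.91 in vehicle and 9.63% ± 1.17 in 326E livers, and that of Gpat4 was 41.7% ± 3.37, 43.2% ± 1.76 and 33.4% ± 3.93. The 326E libraries thus had a Gpam share in the range of chow (51.7% to 59.4%) and a Gpat3 share in the range of vehicle libraries (7.18% to 13.0%).

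**Figure D3:**
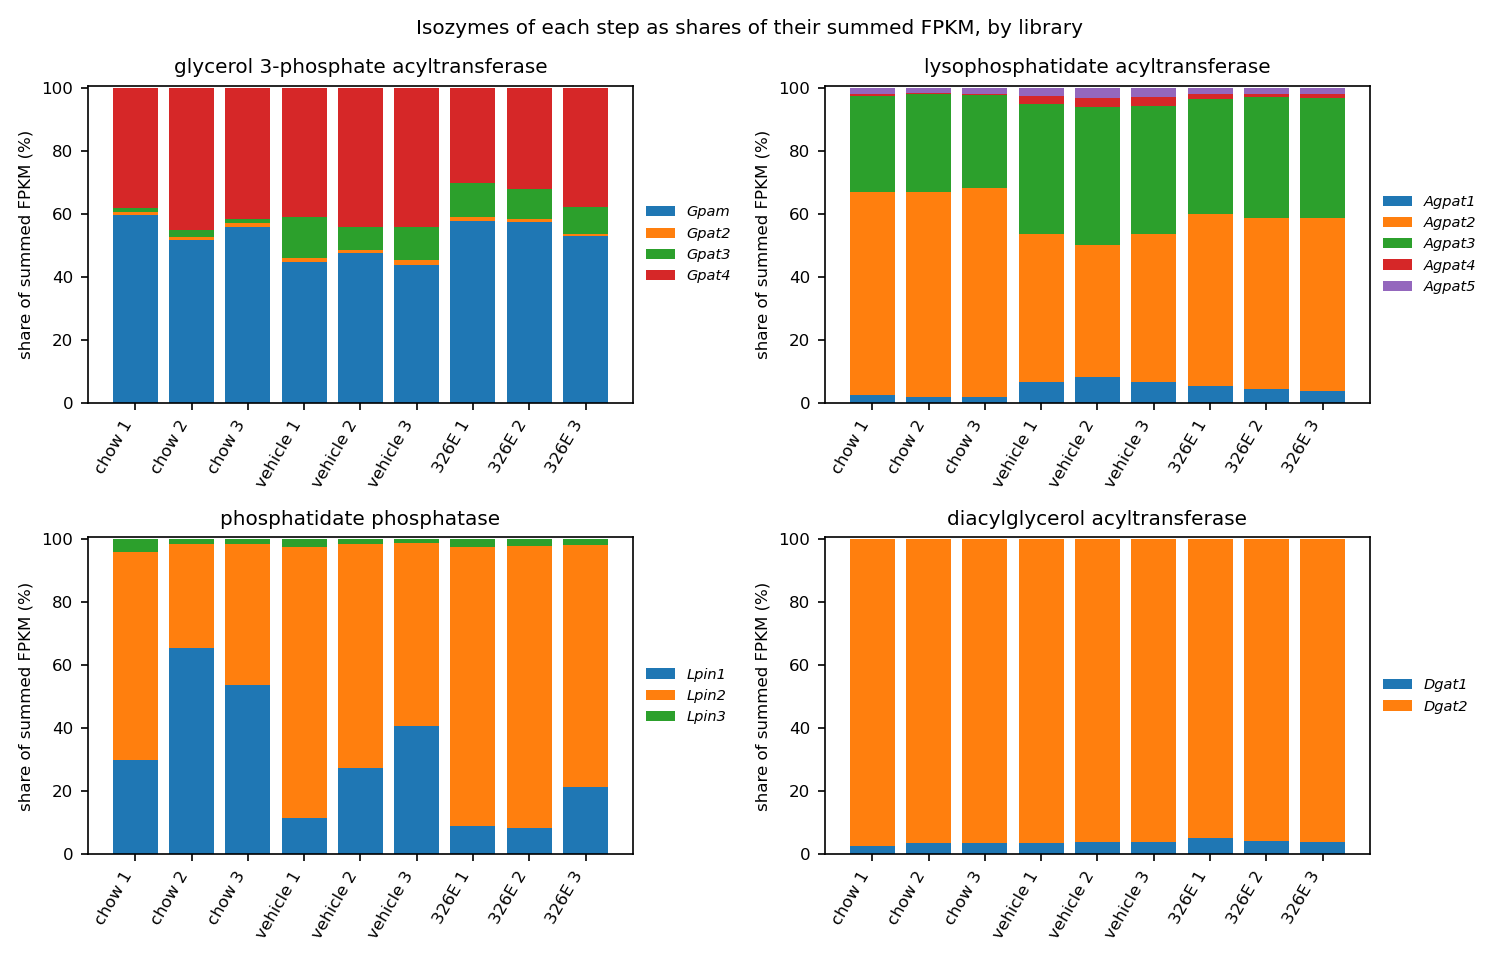
Shares of the isozymes of 4 steps in the summed FPKM of their step, 1 stacked bar per library. The Agpat2 share is lower in vehicle (41.8% to 46.9%) than in chow (64.5% to 66.1%) and 326E libraries (54.3% to 54.8%), the Lpin1 share varies within groups, and Dgat2 takes nearly the whole last step everywhere, with means of 95.7% to 96.8%.

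At the next step, Agpat2, the main lysophosphatidate acyltransferase of liver and fat, whose loss causes a congenital lipodystrophy with fatty liver, fell with the diet and rose with 326E. It (ENSMUSG00000026922, mm10 chromosome 2, 26593057 to 26604417, minus strand) stood at 56.6, 63.3 and 63.7 FPKM in chow, at 34.8, 26.9 and 34.3 in vehicle and at 51.9, 50.3 and 52.4 in 326E libraries. The 3 groups did not overlap, and 326E lay between the others. Agpat2 fell by 0.92 ± 0.11 with the diet (adjusted p = 2.98e-04) and rose by 0.68 ± 0.11 with 326E against vehicle (adjusted p = 0.00821). Both calls held in all 20 alternatives. The 326E livers differed from chow by -0.24 ± 0.11 (adjusted p = 0.151, 95% interval -0.50 to 0.02), a value that was 0.12 scaled to total reads.

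The shares of the isozymes of this step sum to the whole, so they are read beside levels. The Agpat2 share of the summed FPKM of Agpat1 to Agpat5 was 65.1% ± 0.886 (SD, n = 3) in chow, 45.2% ± 2.95 in vehicle and 54.6% ± 0.288 in 326E livers. Agpat3 had shares of 30.4% ± 0.805, 41.9% ± 1.63 and 37.6% ± 1.04. Its level was 28.6 ± 1.91 FPKM in chow, 29.5 ± 1.26 in vehicle and 35.4 ± 1.01 in 326E livers, with log2 differences of 0.04 ± 0.09 for the diet and 0.26 ± 0.09 for 326E against vehicle (adjusted p = 0.726 and 0.0861). Agpat1 had 2.08% ± 0.263, 7.20% ± 0.849 and 4.46% ± 0.758. Shares were tested only by an exact two-sided permutation test, which with 3 libraries against 3 gives at least p = 0.1 and so could not pass. Of 42 isozyme and comparison pairs, 26 reached that value, which was 0.162 after Benjamini-Hochberg adjustment.

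Lipins remove phosphate from phosphatidate, and Lpin1 also acts in the nucleus as a coactivator with PPARα and PGC-1α. Lpin2 rose with the diet and stayed high. It (ENSMUSG00000024052, mm10 chromosome 17, 71182560 to 71249817, plus strand) stood at 26.7, 30.4 and 34.4 FPKM in chow, at 60.7, 70.8 and 56.0 in vehicle and at 64.4, 65.2 and 59.95 in 326E libraries. Every CDAA-HFD library was above every chow library, and the vehicle and 326E libraries overlapped. Lpin2 rose by 1.01 ± 0.12 with the diet (adjusted p = 2.75e-04) and by 1.03 ± 0.12 for 326E against chow (adjusted p = 6.01e-04). Between 326E and vehicle it differed by 0.02 ± 0.12 (adjusted p = 0.926, 95% interval -0.26 to 0.30). The calls against chow held in all 20 alternatives.

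Lpin1 varied more within each group than any other of the enzymes above 1 FPKM. It stood at 12.1, 60.1 and 41.7 FPKM in chow, at 8.19, 27.5 and 39.1 in vehicle and at 6.56, 6.12 and 16.8 in 326E libraries. The coefficient of variation was 63.7%, 62.7% and 61.4%, and all groups overlapped. Lpin1 is known to respond to fasting and the daily clock, and the sources used here give neither feeding state nor hour of collection. The difference was -0.57 ± 0.68 for the diet, with adjusted p = 0.54, and turned to 0.06 without vehicle replicate 1. It was -1.15 ± 0.68 for 326E against vehicle (adjusted p = 0.307) and -1.72 ± 0.68 for 326E against chow (adjusted p = 0.0949, 95% interval -3.27 to -0.18). The latter passed without chow replicate 1, at -2.37 with adjusted p = 0.0324. Its share of lipin FPKM ranged from 30.0% to 65.5% in chow, 11.6% to 40.6% in vehicle and 8.39% to 21.4% in 326E libraries. Lpin3, the least abundant lipin here, had group means of 1.43 ± 0.249, 1.49 ± 0.261 and 1.61 ± 0.0902 FPKM (SD, n = 3), with no call in any comparison (adjusted p = 0.842, 0.707 and 0.518).

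Mogat1, which makes diacylglycerol from monoacylglycerol and is scarce in normal mouse liver, was barely detected without 326E. It (ENSMUSG00000012187, mm10 chromosome 1, 78510991 to 78538173, plus strand) had 4, 2 and 8 reads in chow, 5, 7 and 1 in vehicle, and 281, 296 and 331 in 326E libraries. In FPKM these were 0.199, 0.0991 and 0.467, then 0.196, 0.221 and 0.0373, then 10.2, 10.5 and 13.9. All 326E libraries were far above all others, and the chow and vehicle libraries overlapped. Over the summed reads of the groups, 908 against 13, 326E was 73.8 times vehicle, with a 95% exact interval of 43.0 to 139 that covers counting error only. Against chow, with 14 reads, the ratio was 46.9 (27.8 to 86.1).

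On the log2(FPKM+1) scale, Mogat1 rose by 3.44 ± 0.15 against vehicle (adjusted p = 2.21e-05) and by 3.32 ± 0.15 against chow (adjusted p = 4.43e-06). It had the smallest p of all 13737 genes for 326E against vehicle, rank 1, and rank 11 for 326E against chow. Mogat1 reached the minimum of 0.5 FPKM in the 3 libraries with 326E and in 0 others, so it was tested only because it was high there. With no minimum the adjusted p was 2.97e-04 against vehicle and 8.03e-05 against chow. The size depends on the pseudocount: against vehicle the value was 5.61 with 0.1 added and 1.68 with 5 added, and 6.31 with voom on whole reads. The diet alone gave -0.12 ± 0.15 (adjusted p = 0.564).

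Mogat1 is also expressed in fat, so adipocyte markers are given beside it. Lep was at 0 in all libraries, and the summed FPKM of 6 markers was 1.73 to 3.37 in chow, 0.634 to 1.84 in vehicle and 1.61 to 6.74 in 326E libraries. Of the 2 markers that could be tested, Adrb3 rose with 326E against vehicle by 0.65 ± 0.14 (adjusted p = 0.0213) and Cfd did not pass (0.97 ± 0.56, adjusted p = 0.292). Adrb3 was lower with the diet (-0.82 ± 0.14, adjusted p = 0.00175). It did not pass for 326E against chow (-0.17 ± 0.14, adjusted p = 0.404). In 326E replicates 1, 2 and 3, Cfd stood at 3.99, 0.120 and 2.84 FPKM, Adipoq at 0.574, 0 and 0.902 and Plin1 at 0.231, 0.0119 and 0.0564, beside Mogat1 at 10.2, 10.5 and 13.9. The part of fat cells in the Mogat1 values was not tested. Mogat2, the intestinal isozyme, stood at 0.520 ± 0.451 FPKM in chow, 1.04 ± 0.332 in vehicle and 0.878 ± 0.664 in 326E livers, without a call. Mogat1 made up 92.8% ± 5.73 (SD, n = 3) of the summed FPKM of both in 326E livers, 14.1% ± 10.8 in vehicle livers and 43.9% ± 48.8 in chow livers. The chow shares were 20.7%, 11.0% and 100%, the last in a library with Mogat2 at 0, and 326E against chow gave p = 0.4 in the exact permutation test. BC035947, on the opposite strand of the Mogat1 locus, had at most 14 reads in a library.

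The last step is carried by Dgat2, which is tied to newly made fatty acids in liver, and by Dgat1, an unrelated protein that re-esterifies fatty acids. Dgat2 stood at 228, 201 and 179 FPKM in chow, at 169, 133 and 161 in vehicle and at 141, 144 and 179.8 in 326E libraries. Vehicle libraries lay below chow, and 326E overlapped both. Dgat2 differed by -0.39 ± 0.15 for the diet (adjusted p = 0.063), by 0.01 ± 0.15 for 326E against vehicle (adjusted p = 0.983, 95% interval -0.33 to 0.34) and by -0.39 ± 0.15 for 326E against chow (adjusted p = 0.0883). The latter passed without 326E replicate 3, at -0.50 with adjusted p = 0.0488. Dgat1 stood at 6.41, 7.25 and 6.37 FPKM in chow, at 6.28, 5.38 and 6.61 in vehicle and at 7.48, 6.21 and 7.27 in 326E libraries, overlapping throughout. It gave -0.12 ± 0.10 for the diet (95% interval -0.35 to 0.12) and 0.17 ± 0.10 for 326E against vehicle (95% interval -0.06 to 0.41). Dgat2 made up 96.8% ± 0.419, 96.2% ± 0.188 and 95.7% ± 0.605 of the summed FPKM of both genes.

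Genes around this route were read from 4 further lists. Of 9 other acyltransferases tested, 2 rose with the diet, 0 fell and 7 did not pass, and with 326E against vehicle 0 passed. The background was 20.8% called higher for the diet and 11.5% called in either direction for 326E, and the medians were 0.19 and -0.16, beside -0.04 and -0.02. With voom 0 passed as well, and the unadjusted limma p was under 0.05 for 4 of the 9, Agpat3 and Lclat1 higher and Agpat4 and Tmem68 lower. Over all 13737 tested genes, at least 3623 had an unadjusted p under 0.05 in either direction for 326E against vehicle. Agpat1, a broadly expressed isozyme, rose from 1.95 ± 0.137 to 5.05 ± 0.186 FPKM with the diet (log2 1.04 ± 0.11, adjusted p = 1.1e-04). Agpat4, an isozyme best known from brain, rose from 0.469 ± 0.195 to 1.89 ± 0.0768 FPKM (log2 0.98 ± 0.14, adjusted p = 5.66e-04). Chow replicates 2 and 3 had Agpat4 at 0.314 and 0.404 FPKM, under the minimum of 0.5, so its test rests on the CDAA-HFD libraries. In 326E livers they stood at 4.20 ± 0.705 and 1.14 ± 0.340 FPKM. These minor isozymes thus went up with the diet, where Agpat2 went down.

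For glycerol 3-phosphate supply, 2 of 6 tested genes rose with the diet and 2 fell, and with 326E against vehicle 1 rose and 5 did not pass. Gpd1, which makes glycerol 3-phosphate from a glycolytic intermediate, fell by 1.43 ± 0.20 with the diet (adjusted p = 6.11e-04), from 74.7 ± 13.6 to 27.2 ± 6.26 FPKM. It rose by 0.78 ± 0.20 with 326E against vehicle (adjusted p = 0.0408), to 46.8 ± 6.75 FPKM. Aqp7, a glycerol channel of fat, rose with the diet by 0.98 ± 0.12 (adjusted p = 2.42e-04), from 0.0473 ± 0.0563 to 1.07 ± 0.194 FPKM, and stood at 0.987 ± 0.196 FPKM in 326E livers. Over all tested genes 20.8% were called in each direction for the diet and 11.5% in either direction for 326E. The list's medians of -0.07 for the diet and 0.32 for 326E stand beside -0.04 and -0.02 over all tested genes.

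Among 15 tested genes that draw phosphatidate and diacylglycerol into other branches, 5 rose and 3 fell with the diet, and 2 rose and 13 did not pass with 326E against vehicle. Cds1, counted as higher with the diet, was at most 0.231 FPKM in chow, under the minimum of 0.5. It was tested only because it was high on CDAA-HFD. Plpp2, a phosphatase of lipid phosphates, rose by 0.89 ± 0.13 with the diet (adjusted p = 7.57e-04), and Chpt1, which makes phosphatidylcholine from diacylglycerol, fell by 0.79 ± 0.24 (adjusted p = 0.0268). With 326E, Dgkh, a kinase that turns diacylglycerol back into phosphatidate, rose by 0.93 ± 0.14 (adjusted p = 0.00573), from 0.880 ± 0.225 to 2.57 ± 0.218 FPKM. Pcyt2, of phosphatidylethanolamine synthesis, rose by 0.52 ± 0.13 (adjusted p = 0.0341), from 36.8 ± 5.14 to 52.9 ± 3.43 FPKM. The 8 of 15 called for the diet stand beside 41.6% of all tested genes, and the 2 of 15 called for 326E beside 11.5%, near that share. The list's medians were -0.15 and 0.03, beside -0.04 and -0.02 over all tested genes.

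Of 8 known regulators of these enzymes, 2 rose and 2 fell with the diet, and 2 rose and 2 fell with 326E against vehicle. Of all tested genes 20.8% rose and 20.8% fell with the diet, near the regulators' shares, and 4.96% rose and 6.5% fell with 326E. The regulators' medians were -0.11 and 0.09, beside -0.04 and -0.02. Srebf1, the sterol-regulated factor of fatty acid synthesis genes, fell from 30.2 ± 7.19 to 14.2 ± 4.66 FPKM with the diet (log2 -1.07 ± 0.26, adjusted p = 0.00951) and stood at 38.4 ± 5.02 with 326E (log2 1.42 ± 0.26 against vehicle, adjusted p = 0.0108). Mlxipl, the carbohydrate response factor ChREBP, fell by 1.42 ± 0.13 with the diet (adjusted p = 6.39e-05) and rose by 0.71 ± 0.13 with 326E (adjusted p = 0.0124). Pparg, the adipogenic receptor that steatotic liver also expresses, went the other way: 4.02 ± 0.662 FPKM in chow, 7.86 ± 1.60 in vehicle and 3.81 ± 0.0957 with 326E, a rise of 0.81 ± 0.14 (adjusted p = 0.00204) and then a fall of 0.86 ± 0.14 (adjusted p = 0.00784). Ppara itself did not pass in any comparison (0.40 ± 0.24 with 326E against vehicle, adjusted p = 0.326).

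**Figure D4:**
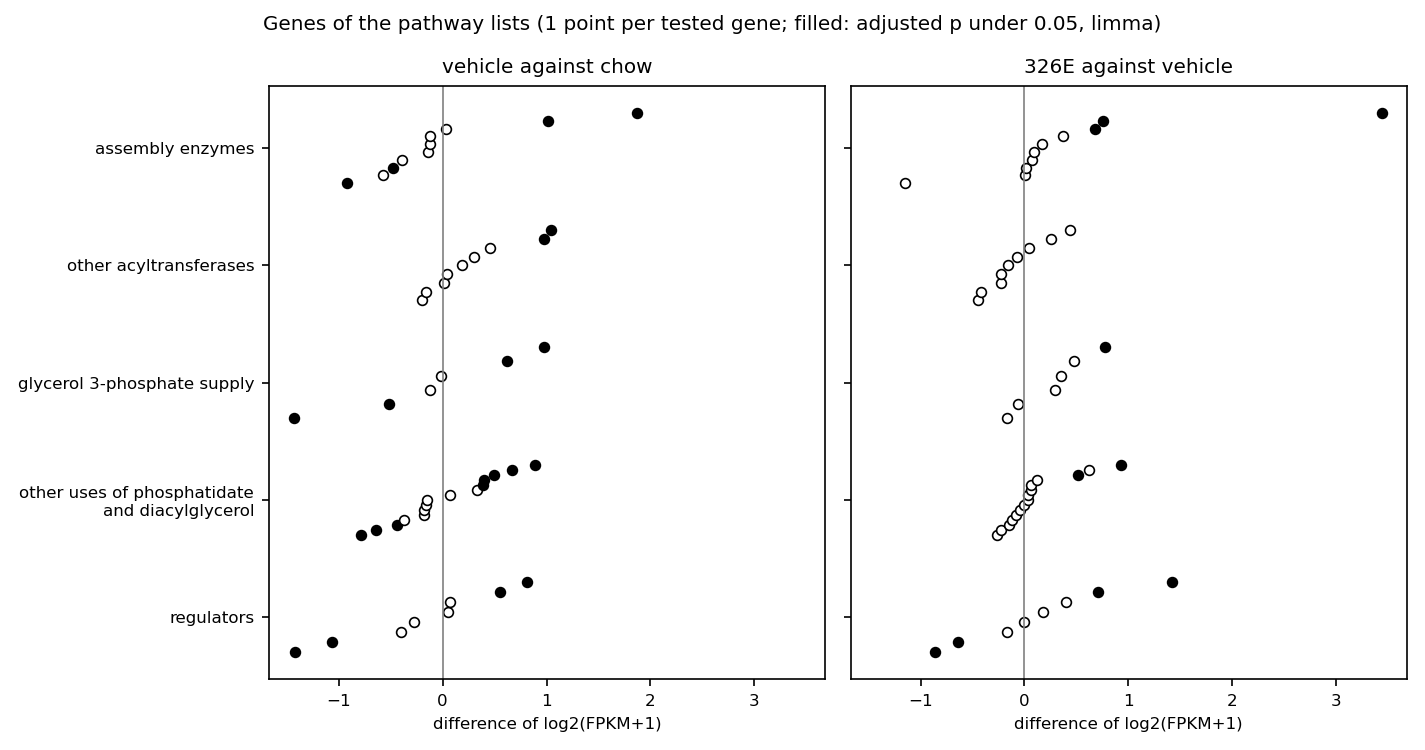
Differences of log2(FPKM+1) for each tested gene of the assembly enzymes and the 4 further lists, for vehicle against chow and for 326E against vehicle; filled points passed an adjusted p under 0.05 in limma. In the 326E panel 3 assembly enzymes are filled and none of the other acyltransferases, and Mogat1 lies farthest right at 3.44.

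The protein-coding genes most alike to each called enzyme were found by the Pearson correlation of log2(FPKM+1) over the 9 libraries, which share 3 groups, so the values describe group patterns. For Mogat1 they were Ucp3 (r = 0.993), Mup6 (r = 0.989) and Oplah (r = 0.986). Ucp3 averaged 0.00821, 0.0105 and 2.96 FPKM in chow, vehicle and 326E livers, and Mup6, whose reads near-identical paralogs can take, 0.349, 0.385 and 10.7. For Gpam they were Miga2 (r = 0.980), Abcd3 (r = 0.972) and Hsd17b4 (r = 0.964). Abcd3 and Hsd17b4 encode peroxisomal proteins, and Abcd3 averaged 132.6, 85.1 and 185 FPKM, lowest in vehicle and highest with 326E as Gpam was. For Agpat2 they were Smg6 (r = 0.986), Gstk1 (r = 0.979) and Mcu (r = 0.975). For Lpin2 they were Fmo5 (r = 0.993), Kctd17 (r = 0.982) and Nt5c3b (r = 0.982), and for Gpat3 Scpep1 (r = 0.981), Ccnb2 (r = 0.980) and Dmpk (r = 0.976). Fmo5 averaged 119 FPKM in chow, 220.5 in vehicle and 222 in 326E livers.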

How the data were processed

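Poly(A) RNA of 9 liver libraries was sequenced. The submitters' processing notes name HISAT2, featureCounts and the build mm10. Versions, annotation release and strand setting are not given in the sources used here, so overlapping genes are uncertain. The authors deposited FPKM and a gene length for each gene, whose lengths entered the FPKM. FPKM times length came out as whole reads (tolerance 0.01) in 100% of values, with library sizes of 0.828 to 1.19 times the assigned reads, so the authors had scaled between libraries. This factor was 0.828 to 0.860 in chow libraries and 1.01 to 1.19 in CDAA-HFD libraries, so it follows the diet and enters every comparison with chow. Replicates differed by more than counting error (chi-square per degree of freedom 20.5 to 79.5). Of 54495 genes shared with GENCODE vM21, 98.3% had the same coordinates.

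The 13737 genes that reached 0.5 FPKM in 3 or more libraries entered a limma fit (version 3.58.1, R 4.3.3) of log2(FPKM+1) over all 9 libraries, with trended variance and 6 residual degrees of freedom. Each comparison had its own Benjamini-Hochberg adjustment. Fitted intervals are 95%. Isozyme shares were tested by exact permutation with scipy 1.17.1. The method was tested on simulated data. All 10 enzymes are named whatever their values. Of each further list, the 2 called genes with the largest change in a comparison are named where values are given, and Ppara was named after its values were seen, as were the 4 acyltransferases named by unadjusted p. For each called enzyme the 3 most alike genes are named. The members and lists were chosen with earlier results of these data known. Alternatives were other pseudocounts, filters, scalings and variance models, fewer libraries, voom on whole reads and a replicate block.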

Additional observations from a re-analysis of the deposited data

How the results depend on the processing

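Of 600 values of single enzymes under the 20 alternatives (10 enzymes, 3 comparisons), 557 kept direction and side of the threshold, 9 lost a call, 5 gained one and 29 changed sign. The calls of Mogat1, Gpat3, Lpin2 and Agpat2 held throughout. The losses were all of Gpam, 8 for the diet and 1 for 326E. The gains were for 326E against chow: Dgat1 (0.37) and Gpam (0.64) scaled to total reads, Dgat2 without 326E replicate 3, and Lpin1 without chow replicate 1 and with the replicate block. Scaling to total reads moved the median of all tested genes from -0.04 to 0.25 for the diet and from -0.02 to 0.235 for 326E against chow, and the share of called genes that were higher from 50% to 84.1% and from 53.5% to 86.9%.

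All sign changes were of differences without a call in either setting. Scaled to total reads they were, for the diet, Dgat1 0.23, Dgat2 0.00 and Gpat4 0.25, for 326E against vehicle, Dgat2 -0.03 and Lpin2 -0.01, and for 326E against chow, Agpat2 0.12 and Gpat4 0.31. With quantile normalization they were, for the diet, Dgat2 0.05, Gpat4 0.06 and Lpin3 -0.14, for 326E against vehicle, Dgat2 -0.06 and Lpin2 0.00, and for 326E against chow, Gpat4 0.12 and Lpin3 -0.01. Leaving out 1 library turned, for the diet, Lpin1 (lowest -1.22, highest 0.06), Lpin3 (-0.03 to 0.12) and Mogat1 (-0.21 to 0.00), for 326E against vehicle, Dgat2 (-0.11 to 0.07), Gpat4 (-0.07 to 0.21), Lpin2 (-0.05 to 0.11) and Lpin3 (-0.01 to 0.13), and for 326E against chow, Gpat4 (-0.21 to 0.07). With only vehicle replicate 2 kept, Lpin2 was -0.16 for 326E against vehicle. The cause was not tested.

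The count of enzymes called was 3 to 4 for the diet and 2 to 3 for 326E against vehicle under all alternatives, and 3 to 5 for 326E against chow, with 5 when scaled to total reads. Genes called for 326E against vehicle numbered 1574, and 1030 with no filter, 1037 with the replicate block and 322 with only vehicle replicate 2 kept, where the lone library is assumed to vary like the other groups; leaving out 1 library gave 659 (without 326E replicate 2) to 1623, with 879 without vehicle replicate 3, 961 without 326E replicate 1 and 724 without 326E replicate 3. For the diet 5721 genes were called, 3596 with only vehicle replicate 2 kept and 4697 to 5669 without 1 library. For 326E against chow 3688 were called, and 2401 (without 326E replicate 2) to 3717 without 1 library. The replicate numbers showed no sign of pairing the samples. Deviations of same-numbered libraries correlated at -0.244 to 0.0236, and in 0 of 9 cases did a library correlate best with its own number. A pairing with a small effect could go unseen in these correlations. With the replicate block the call of Lpin1 for 326E against chow was gained (-1.72, adjusted p = 0.025) and no other call of an enzyme changed. For the isozyme shares, without division by length 14 of 42 differences moved by more than 1 SD. With 1 library left out all 252 values stayed within 1 SD. Leaving out 1 library of 3 cannot move a group mean that far, so these 252 values show nothing about stability. Depth limits Mogat1 outside the 326E libraries, at 1 to 8 reads, so its direction with the diet was not detectable.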
